A study of Mus musculus with 2 samples.

Results

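The genes described here make up the RANK signalling pathway of bone resorption and the osteoclast genes downstream of it. They were chosen by name as 10 of the 43346 mouse genes in the data: the ligands Tnfsf11 and Csf1, the receptor Tnfrsf11a, the decoy receptor Tnfrsf11b, the transcription factor Nfatc1, the cell fusion genes Dcstamp, Ocstamp and Atp6v0d2, and the resorption genes Acp5 and Ctsk. All 10 were found. Total RNA of mouse limb at 15.5 days of embryonic development, strain B6NCrl, was sequenced from 1 group of 2 biological replicates. Replicate 1 was a pool of 78 embryos and replicate 2 a separate pool of 62 embryos, each of both sexes and with no genetic or drug treatment in the labels. Each library was made from 10 ng of RNA longer than 200 nt with added spike-in RNA, and the labels do not tell forelimb from hindlimb. Estimated read counts totalled 35104685 in replicate 1 and 41757268 in replicate 2. With 1 group there was no condition to compare, so levels and differences between the pools are given without a test.

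Osteoclasts are large cells that form when precursors of the macrophage lineage fuse, and they dissolve bone and calcified cartilage. CSF1 keeps the precursors alive, and RANK ligand (Tnfsf11), made by bone, cartilage and stromal cells, binds RANK (Tnfrsf11a) on their surface and acts through TRAF6, NF-kB and calcium signals to raise NFATc1, which switches on the fusion and resorption genes. Osteoprotegerin (Tnfrsf11b) is a secreted decoy that binds the ligand and blocks it. In the embryonic limb the first osteoclasts arrive as blood vessels invade the calcifying cartilage and marrow cavities open.

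Levels are in TPM, a share of all transcripts in the library, which is corrected for gene length, so that different genes can be compared. The 10 genes spanned a 233-fold range of mean TPM. Ctsk had the highest mean at 104 ± 32.1, ahead of Acp5 at 32.1 ± 9.46, Nfatc1 at 31.1 ± 3.88 and Csf1 at 15.6 ± 2.57 (SD, n = 2). Tnfrsf11b followed at 3.50 ± 0.643, Atp6v0d2 at 1.72 ± 1.20 and Tnfsf11 at 1.12 ± 0.467. Tnfrsf11a at 0.985 ± 0.304, Dcstamp at 0.625 ± 0.361 and Ocstamp at 0.445 ± 0.318 had means under 1 TPM. Ctsk was thus the highest of the 10 in both libraries, and the fusion genes Dcstamp and Ocstamp had the lowest means. Of the 9 neighbouring pairs in this order, 5 had library values that overlapped: Acp5 with Nfatc1, and every step from Atp6v0d2 down. Among all 43346 genes Ctsk stood in the top 3.71%, Acp5 in the top 11.5% and Ocstamp in the top 40.9%.

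**Figure D1:**
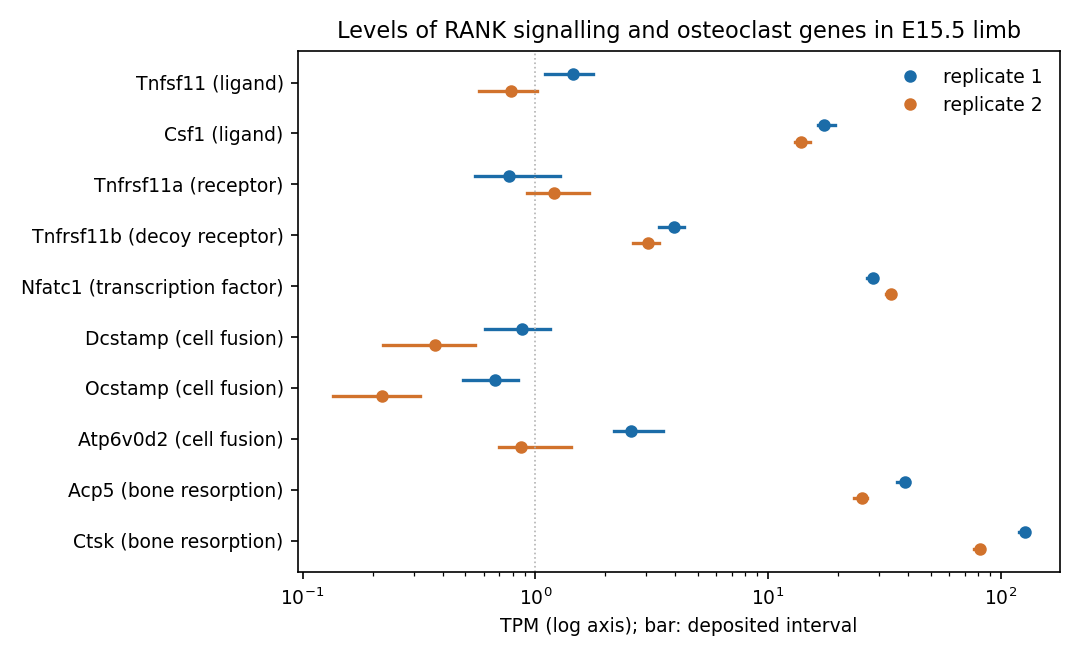
TPM of the 10 genes (log axis) in replicate 1 (blue) and replicate 2 (orange), ordered by role; bars are the intervals deposited with each value and the dotted line marks 1 TPM. Ctsk lies highest at 127 and 81.2 TPM, the 3 genes with means under 1 TPM are Tnfrsf11a, Dcstamp and Ocstamp, and replicate 1 lies to the right of replicate 2 for 8 of the 10.

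The ligand of RANK was scarce. Tnfsf11 (ENSMUSG00000022015.8, GRCm38 chromosome 14, 78277445 to 78308043, minus strand) had 1.45 TPM in replicate 1 against 0.79 in replicate 2, from 69 and 46 counts. Replicate 1 was 1.71-fold higher on the scale of TPM plus 0.1, centred on the median gene, which is the scale of every fold between the pools below. Folds between genes of a library are also of TPM plus 0.1, and the added 0.1 makes folds of low genes smaller. The deposited intervals, 1.10 to 1.76 TPM and 0.571 to 1.02 TPM, did not overlap. Those intervals cover counting and the assignment of reads, not the variation between pools of embryos. In whole limbs, fewer cells of a type and less RNA per cell cannot be told apart.

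Its promoter is shown because Tnfsf11 is the signal at the head of the pathway and its single annotated transcript (5 exons, 316 codons) fixes 1 start. Of the 10 genes, 5 had an entry in the RefSeq promoter table (GRCm38.p6), with 7 windows in all. Tnfrsf11b, Nfatc1, Dcstamp, Ocstamp and Atp6v0d2 are named only. The 250 bases before the Tnfsf11 start, chr14:78308044-78308293 on the minus strand, read 5′ to 3′ as follows, with a TATA box core in capitals.
Tnfsf11: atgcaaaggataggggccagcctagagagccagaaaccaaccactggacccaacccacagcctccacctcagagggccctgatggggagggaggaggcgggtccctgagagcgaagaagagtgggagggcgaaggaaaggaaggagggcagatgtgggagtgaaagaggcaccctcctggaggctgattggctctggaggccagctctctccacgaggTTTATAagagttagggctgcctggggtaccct
The core, TATAAA, was read on the opposite strand at -32 to -27, where -1 is the last base before the start. It occurred in 1 of the 7 windows of these genes and, on either strand, in 12.4% of the 32851 windows of all genes. The window had a GC content of 60.4%, beside a median of 52.4% over all windows. A match of letters is a description of the sequence and not a site of binding.

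Csf1, the survival factor of macrophages and osteoclast precursors (ENSMUSG00000014599.6, chromosome 3, 107741048 to 107760469, minus strand), had 17.5 TPM in replicate 1 against 13.8 in replicate 2. It was the more abundant of the ligands in both pools, 11.3-fold above Tnfsf11 in replicate 1 and 15.7-fold above it in replicate 2. The pools differed by 1.24-fold, with intervals that did not overlap (16.4 to 19.5 and 13.0 to 15.2 TPM). Il34, the second ligand of the CSF1 receptor, had 4.51 and 4.17 TPM, so Csf1 was 3.81- and 3.26-fold higher. The receptor gene Csf1r had 24.6 and 20.6 TPM and exceeded Csf1 by 1.41- and 1.48-fold.

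Csf1 had 7 annotated transcripts, which code for proteins of different length. Those of 552 codons took 61.9% of the TPM of the gene in replicate 1 and 61.5% in replicate 2, and the shorter form of 257 codons, Csf1-202, took 36.6% and 34.5%. The split between long and short form therefore differed by under 3 percentage points between pools. Within the long form the shorter transcript, Csf1-203, had 2.82 TPM in replicate 1 against 0.93 in replicate 2, with overlapping intervals (1.57 to 4.04 and 0.364 to 1.76 TPM).

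RANK itself was as scarce as its ligand in TPM. Tnfrsf11a (ENSMUSG00000026321.7, chromosome 1, 105780718 to 105847981, plus strand) had 0.77 TPM in replicate 1 against 1.20 in replicate 2, from 46 and 93 counts. It was 1.52-fold higher in replicate 2, the opposite direction to the ligand and to the fusion and resorption genes, and its intervals overlapped (0.550 to 1.28 and 0.922 to 1.69 TPM). Much of that TPM was not assigned to the protein-coding form. The coding transcript Tnfrsf11a-201 (10 exons, 625 codons) had 0.34 and 0.58 TPM, or 44.2% and 48.3% of the gene. Tnfrsf11a-203, annotated as a retained intron and much shorter, had 0.34 and 0.53 TPM. By reads the coding transcript held most, with 37.9 counts of 46 in replicate 1 and 78.2 of 93 in replicate 2, and the short transcript 7.11 and 13.6 counts. Reads over the exons they share were divided by the authors' program, so the level of coding RANK transcript was lower than the gene value alone gives.

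The decoy exceeded both the ligand and the receptor. Tnfrsf11b (ENSMUSG00000063727.3, chromosome 15, 54250619 to 54278484, minus strand, 1 transcript of 401 codons) had 3.96 TPM in replicate 1 against 3.05 in replicate 2, from 240 and 226 counts. Replicate 1 was 1.27-fold higher, and the intervals (3.40 to 4.37 and 2.62 to 3.39 TPM) were just apart. Within a library the decoy stood 2.62-fold above Tnfsf11 in replicate 1 and 3.54-fold above it in replicate 2. It stood 4.67- and 2.42-fold above the gene value of Tnfrsf11a. The gene values did not settle the order of ligand and receptor. By them Tnfsf11 was 1.78-fold above Tnfrsf11a in replicate 1 and 1.46-fold below it in replicate 2. The gene value of Tnfrsf11a includes its retained-intron transcripts. Its coding transcript alone, at 0.34 and 0.58 TPM, lay below Tnfsf11 (1.45 and 0.79 TPM) in both libraries. In replicate 2 their intervals overlapped (0.447 to 0.703 and 0.571 to 1.02 TPM). TRAIL (Tnfsf10), the other ligand that osteoprotegerin binds, had only 0.08 and 0.13 TPM, from 9 and 17 counts.

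**Figure D2:**
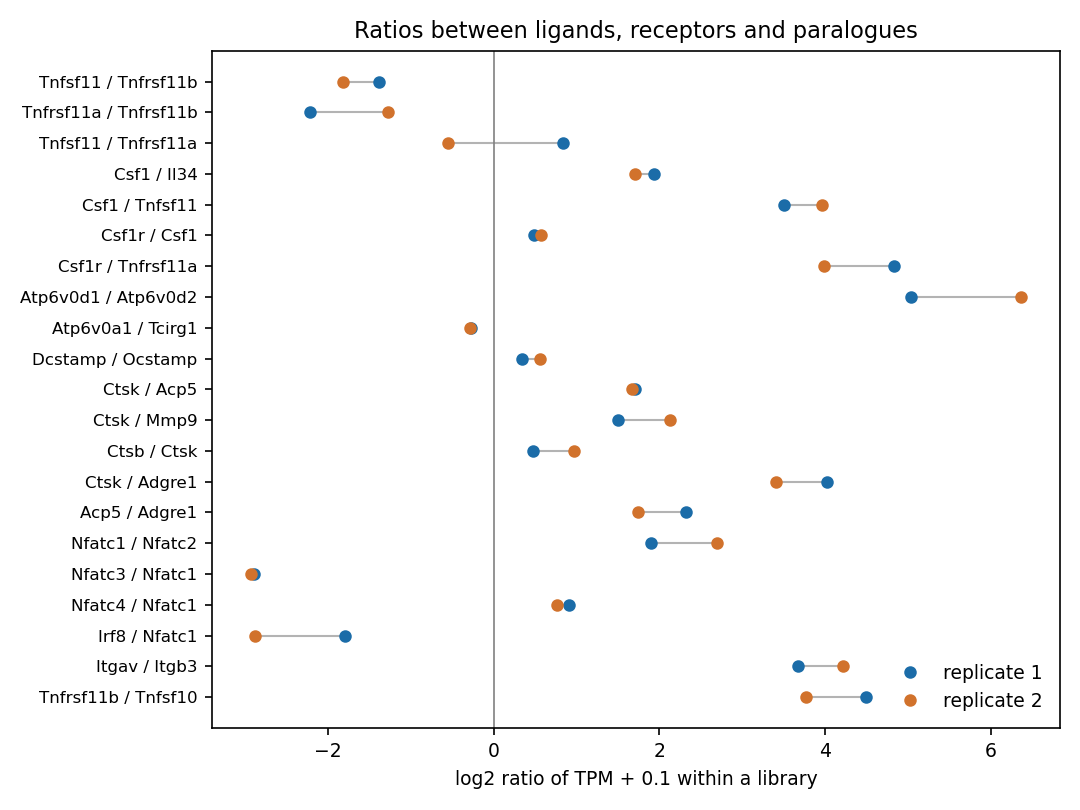
Log2 ratio of TPM plus 0.1 for 21 gene pairs within replicate 1 (blue) and replicate 2 (orange); a value above 0 means that the first gene is higher. Tnfrsf11b exceeds Tnfsf11 and Tnfrsf11a in both libraries, the ratio of Tnfsf11 to Tnfrsf11a changes side (0.83 and -0.55), and the ratio of Ctsk to Acp5 is nearly the same (1.70 and 1.67).

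The signal carriers below RANK were abundant beside the receptor and close to equal in the pools. All 22 genes of the list for RANK transduction averaged at least 1 TPM, and 0 of them differed by over 1.5-fold. Each replicate was higher for 11, with a median log2 difference of 0.00. Of all 15571 genes at that level 7785 were higher in each replicate. Over 1.5-fold, 4.87% of them were higher in replicate 1 and 3.12% in replicate 2, which is the background of each list below. Most genes thus lay within 1.5-fold. The adaptor gene Traf6, chosen after its values were seen, had 8.67 TPM in both libraries. The highest were the scaffold gene Sqstm1 (223 and 201 TPM), the NF-kB inhibitor gene Nfkbia (89.8 and 83.5 TPM) and the NF-kB subunit gene Rela (49.9 and 46.2 TPM). Traf3, a brake on the alternative NF-kB route, with 7.48 and 9.34 TPM (log2 difference -0.34), and the kinase gene Src, with 12.6 and 15.3 TPM (log2 difference -0.30), were the furthest apart. These genes act in nearly all cells of a limb, so their levels are not those of osteoclast precursors.

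A second input to NFATc1 comes from immunoreceptors that pair with DAP12 and the Fc receptor gamma chain and raise calcium. The calcineurin gene Ppp3r1 (84.7 and 81.3 TPM) and the adaptor genes were highest: Fcer1g had 83.4 and 78.0 TPM, and Tyrobp, which codes for DAP12, had 66.6 and 71.9 TPM. Of 18 listed genes 16 averaged at least 1 TPM, with 1 over 1.5-fold higher in replicate 1 and another in replicate 2. The receptor gene Pirb had 2.02 and 0.78 TPM (log2 difference 1.25), and the kinase gene Btk had 1.15 and 2.77 TPM (log2 difference -1.22), with separate intervals for both. The receptor genes Oscar, at 0.74 and 0.24 TPM, and Trem2, at 5.87 and 4.56 TPM, were chosen after their values were seen, and the intervals of each overlapped. The median log2 difference of the 16 genes was 0.04. Their 1 gene over 1.5-fold each way stands beside 4.87% of all genes in favour of replicate 1 and 3.12% in favour of replicate 2. Pirb and Btk are both low, and of genes with 1 to 10 TPM 9.1% passed in favour of replicate 1.

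Nfatc1, the master transcription factor of osteoclast formation, was not low like the receptor. The gene (ENSMUSG00000033016.11, chromosome 18, 80606205 to 80713071, minus strand) had 28.3 TPM in replicate 1 against 33.8 in replicate 2, from 2860 and 4176 counts. It was 1.21-fold higher in replicate 2, with separate intervals (26.6 to 28.7 and 32.2 to 34.2 TPM), and so ran opposite to its known targets Ctsk and Acp5. NFATc1 also acts in endothelium, cartilage, muscle and hair follicles, and whole-limb values do not tell these apart. Among the relatives Nfatc4 was higher (53.3 and 57.5 TPM), and Nfat5 (15.0 and 18.1 TPM), Nfatc2 (7.53 and 5.11 TPM) and Nfatc3 (3.74 and 4.34 TPM) were lower. Nfatc2 was the only one of the 5 family members that was higher in replicate 1 (log2 difference 0.53), and none of the 5 passed 1.5-fold.

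Nfatc1 is known to be transcribed from a distal promoter that NFATc1 itself induces and from a proximal, constitutive one. The transcripts that began at the distal start, Nfatc1-202 (827 codons) and Nfatc1-204 (939 codons), together held 63.0% of the TPM of the gene in replicate 1 and 67.1% in replicate 2. Nfatc1-201 (703 codons), which began 4885 nt downstream, held 37.0% and 32.9%. Nfatc1-201 also has another 3′ end, at 80647435, where Nfatc1-202 and Nfatc1-204 end at 80606205. The shares are thus of whole annotated transcripts and do not measure the use of the starts alone. The distal sum was 17.8 TPM in replicate 1 against 22.7 in replicate 2, and the proximal transcript had 10.5 and 11.1 TPM. The intervals of Nfatc1-201 overlapped (9.44 to 11.0 and 10.2 to 11.6 TPM) and those of Nfatc1-202 did not (10.2 to 13.4 and 13.8 to 17.4 TPM).

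**Figure D3:**
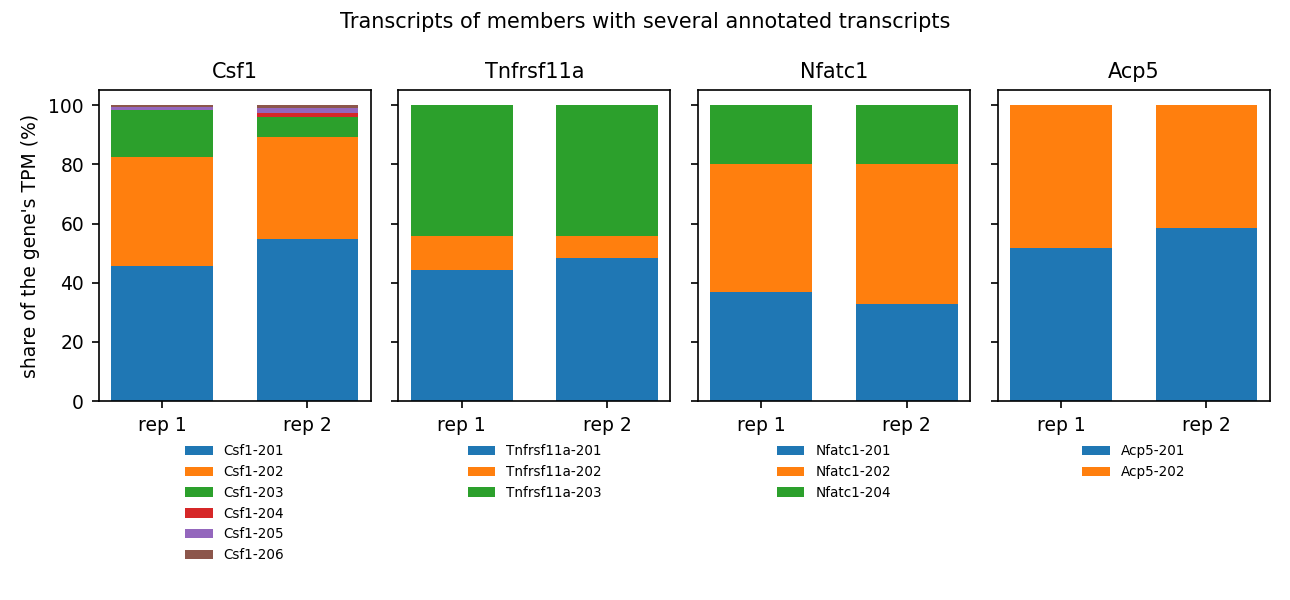
Share of each annotated transcript in the TPM of its gene (percent, bars start at 0) in both replicates for Csf1, Tnfrsf11a, Nfatc1 and Acp5. Coding Tnfrsf11a-201 takes 44.2% and 48.3%, and Acp5 is divided nearly evenly between Acp5-201 (51.6% and 58.5%) and Acp5-202 (48.4% and 41.5%).

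Other factors of the osteoclast programme lay between these levels. Of 13 listed genes 12 averaged at least 1 TPM, with 7 higher in replicate 1, 5 higher in replicate 2 and a median log2 difference of 0.12. The AP-1 genes Jun (94.97 and 89.4 TPM), Fos (40.8 and 31.9 TPM) and Jund (27.8 and 32.2 TPM) were highest. Ppargc1b, a coactivator of mitochondrial growth in osteoclasts, had 5.43 and 3.29 TPM (log2 difference 0.68) and was the only one of the 12 over 1.5-fold. Genes known to hold osteoclast formation back showed no common direction, with 3 of 7 higher in replicate 1 and 4 in replicate 2. Irf8 had 8.07 and 4.52 TPM, the widest difference among the 7 repressors that averaged at least 1 TPM (log2 0.80), although its intervals overlapped.

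The genes for cell fusion had few reads and differed between the pools by the largest folds of the 10 genes with 0.1 TPM added. With 1 TPM added the log2 differences of Dcstamp (0.44) and Ocstamp (0.43) lay below that of Ctsk (0.61), and Atp6v0d2 was still the furthest apart (0.91). Atp6v0d2, a subunit of the proton pump that is needed for fusion (ENSMUSG00000028238.6, chromosome 4, 19876841 to 19922605, minus strand), had 2.57 TPM in replicate 1 against 0.87 in replicate 2, from 140 and 58 counts. Replicate 1 was 2.71-fold higher and the intervals were separate (2.19 to 3.54 and 0.696 to 1.42 TPM). All its reads were assigned to the transcript of 350 codons. Its widespread paralogue Atp6v0d1 had 87.5 and 80.1 TPM, 32.8-fold above Atp6v0d2 in replicate 1 and 82.7-fold in replicate 2 with 0.1 added (34.0- and 92.1-fold with nothing added). The widespread form lay within 1.5-fold between the pools and the osteoclast form did not. The 2 genes differ in level, and low genes pass more often. Of genes with 1 to 10 TPM 9.1% were over 1.5-fold higher in replicate 1, beside 2.16% of those with at least 10 TPM.

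Dcstamp, the membrane protein DC-STAMP of fusing precursors (ENSMUSG00000022303.8, chromosome 15, 39745930 to 39760938, plus strand), had 0.88 and 0.37 TPM from 37 and 19 counts. Ocstamp, its partner OC-STAMP (ENSMUSG00000027670.4, chromosome 2, 165393760 to 165400405, minus strand), had 0.67 and 0.22 TPM from 53 and 21 counts. Both were higher in replicate 1, by 2.05- and 2.37-fold, with separate intervals (0.606 to 1.16 and 0.221 to 0.548 TPM for Dcstamp, 0.490 to 0.840 and 0.135 to 0.318 TPM for Ocstamp). Each had 1 annotated transcript. The ratio of Dcstamp to Ocstamp was 1.27 in replicate 1 and 1.47 in replicate 2 with 0.1 added to each, and 1.31 and 1.68 with nothing added.

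The wider list for fusion and adhesion had 14 genes that averaged at least 1 TPM, and 0 of them passed 1.5-fold. Of all genes at that level 4.87% passed in favour of replicate 1 and 3.12% in favour of replicate 2. The tetraspanin genes Cd81 (644 and 568 TPM) and Cd9 (432 and 403 TPM) and the immunoglobulin family gene Cd47 (88.4 and 84.9 TPM) were highest, and many limb cells express them. Itgb3, the beta chain of the osteoclast integrin, had 4.05 and 3.02 TPM (log2 difference 0.39), and Pstpip2, a gene of macrophages and osteoclasts, had 4.93 and 3.22 TPM (log2 difference 0.58). The intervals were separate and higher in replicate 1 for 5 of the 14, beside 13.6% of all genes at that level. They were so in replicate 2 for 0, beside 9.63%. The integrin partner Itgav, found on many cells, stood 12.8- and 18.6-fold above Itgb3.

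The resorption genes had the highest means of the 10, although Acp5 was below Nfatc1 in replicate 2. Whole-limb values do not tell which cells these transcripts came from, so the levels are not those of osteoclasts alone. Ctsk, the collagen-cutting protease cathepsin K (ENSMUSG00000028111.3, chromosome 3, 95499256 to 95509362, plus strand, 1 transcript of 8 exons and 329 codons), had 127 TPM in replicate 1 against 81.2 in replicate 2, from 3905 and 3060 counts. It was 1.53-fold higher in replicate 1 and its intervals were separate (119.5 to 127 and 76.7 to 82.3 TPM). Acp5, tartrate-resistant acid phosphatase, the stain by which osteoclasts are recognised (ENSMUSG00000001348.10, chromosome 9, 22126727 to 22135711, minus strand), had 38.8 TPM in replicate 1 against 25.4 in replicate 2, from 1106 and 888 counts. It was 1.4998-fold higher in replicate 1, just under the 1.5-fold mark used here, with separate intervals (35.7 to 40.2 and 23.4 to 26.6 TPM). The pair kept almost the same proportion, with Ctsk 3.26-fold above Acp5 in replicate 1 and 3.18-fold in replicate 2. Other pairs did so too, among them Atp6v0a1 over Tcirg1 (0.831 and 0.823) and Nfatc3 over Nfatc1 (0.135 and 0.131). The last exon of Acp5 shares bases with 6530413G14Rik on the opposite strand, and the labels do not say whether counting used strand.

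Acp5 had 3 annotated starts, and all its transcripts code for the same 327 codons. Acp5-203, from the most upstream start, had 0 counts in both libraries, with intervals that reach 1.57 and 1.18 TPM. Acp5-201, which begins 3896 nt downstream, had 20.0 and 14.9 TPM, and Acp5-202, which begins 5113 nt downstream, had 18.8 and 10.6 TPM. Their intervals were wide and overlapped between pools, since these transcripts differ in little more than the first exon. Both starts were in use in these estimates, with a mean share of 55.1% for Acp5-201 and 44.9% for Acp5-202 (SD 4.86 percentage points for each, n = 2).

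The promoter windows of Ctsk and of the Acp5 starts with reads are shown because these genes kept nearly 1 ratio in both pools, as other pairs also did. They are from RefSeq, GRCm38.p6, and read 5′ to 3′ towards the start. The RefSeq start of Ctsk lies 46 nt from the GENCODE start, that of Acp5-201 lies 50 nt from it and that of Acp5-202 is the same base. Capitals mark a core of PU.1, a factor of the macrophage lineage (GAGGAA), in Ctsk, and the E-box form CATGTG, which MITF can bind, in Acp5-202. In each window the letters were searched on both strands. The Ctsk window is chr3:95498960-95499209 on the plus strand, that of Acp5-201 is chr9:22131866-22132115 on the minus strand, and that of Acp5-202 is chr9:22130609-22130848 on the minus strand, without the 10 bases next to the start that are exon of another transcript.
Ctsk: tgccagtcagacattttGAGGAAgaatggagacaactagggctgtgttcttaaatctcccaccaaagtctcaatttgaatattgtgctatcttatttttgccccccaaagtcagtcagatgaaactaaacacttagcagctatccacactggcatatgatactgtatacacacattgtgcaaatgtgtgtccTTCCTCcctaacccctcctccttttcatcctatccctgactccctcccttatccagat
Acp5-201: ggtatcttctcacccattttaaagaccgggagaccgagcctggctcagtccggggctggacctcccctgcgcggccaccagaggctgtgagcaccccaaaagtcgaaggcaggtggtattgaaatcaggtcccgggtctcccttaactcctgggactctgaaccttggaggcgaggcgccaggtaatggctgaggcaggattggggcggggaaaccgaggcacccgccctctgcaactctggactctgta
Acp5-202: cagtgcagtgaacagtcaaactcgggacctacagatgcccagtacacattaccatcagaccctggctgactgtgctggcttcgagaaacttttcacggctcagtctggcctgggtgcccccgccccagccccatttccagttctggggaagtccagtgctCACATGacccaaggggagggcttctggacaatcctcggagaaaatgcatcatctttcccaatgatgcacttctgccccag
The PU.1 cores of Ctsk lie at -233 to -228 on its own strand and at -58 to -53 on the other, where -1 is the last base before the start. No other of the 7 windows held that core, which was found in 23.3% of all windows. The E-box of Acp5-202 lies at -90 to -85, read on the other strand, in 1 of 7 windows beside 12.3% of all. The short NFAT core GGAAA was in 5 of 7 windows beside 55.6% of all, with 2 matches for Acp5-202, 1 for Acp5-201 and 0 for Ctsk. The AP-1 letters TGANTCA (6.75% of all windows) and the E-box CACGTG (6.02%) were in 0 of 7. The windows of Ctsk and Acp5 had none of the searched motifs in common, which says only that these letters are not shared in these stretches.

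Osteoclasts dissolve mineral by pumping acid. Of 28 listed genes for acid secretion 27 averaged at least 1 TPM, with 19 higher in replicate 1 and 8 in replicate 2, and a median log2 difference of 0.08. The pump subunit genes Atp6v0c (441 and 402 TPM), Atp6v1g1 (269 and 259 TPM) and Atp6v0e (217 and 212 TPM), which all cells use, were highest. Over 1.5-fold higher in replicate 1 were the pump subunit gene Atp6v1c2 (1.89 and 0.47 TPM, log2 difference 1.78) and the sodium exchanger gene Slc9b2 (4.54 and 1.89 TPM, log2 difference 1.20), which osteoclasts are known to express. Carbonic anhydrase 2, the source of protons in osteoclasts and a red cell enzyme too, ran the other way (Car2, 13.8 and 21.2 TPM, log2 difference -0.64). The osteoclast pump subunit gene Tcirg1 (38.9 and 43.2 TPM) and its paralogue Atp6v0a1 (32.3 and 35.6 TPM) were both a little lower in replicate 1. The 24 genes of the list that lay within 1.5-fold included both the subunits that many cells use and the osteoclast subunit gene Tcirg1.

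Among the matrix proteases the 2 genes of the growth plate and bone front stood out. Mmp9, made by osteoclasts and other invading cells, had 44.5 and 18.4 TPM (log2 difference 1.24), and Mmp13, made by late hypertrophic chondrocytes and osteoblasts, had 28.1 and 11.8 TPM (log2 difference 1.22). Both had separate intervals. The other 5 of the 7 listed genes, among them Mmp14 (202 and 218 TPM), Mmp2 (213 and 199 TPM) and Timp2 (120 and 138 TPM), lay within 1.5-fold. Of the cathepsins and their inhibitor, 12 of 13 averaged at least 1 TPM and all 12 were higher in replicate 1. Ctsk was the only one of the 12 over 1.5-fold. Of all 15571 genes at that level 7785 were higher in replicate 1, and 4.87% were so by over 1.5-fold. The highest, Cst3 (497 and 451 TPM), Ctsd (365 and 327 TPM) and Ctsz (220 and 186 TPM), differed by log2 values of 0.12, 0.13 and 0.22. Ctsb, a lysosomal protease of many cells, stood 1.39-fold above Ctsk in replicate 1 and 1.96-fold above it in replicate 2. In these libraries Ctsk was thus further apart than the other 11 detected genes of its list.

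Counted over the whole set, 8 of the 10 genes were higher in replicate 1, and Tnfrsf11a and Nfatc1 were higher in replicate 2. Of the 7 that averaged at least 1 TPM, Tnfsf11, Atp6v0d2 and Ctsk, or 3 of 7, were over 1.5-fold higher in replicate 1, beside 4.87% of the 15571 genes at that level. None of the 7 was over 1.5-fold higher in replicate 2, beside 3.12%. Deposited intervals were separate and higher in replicate 1 for 6 of 7, beside 13.6%, and higher in replicate 2 for Nfatc1 alone, beside 9.63%. Low genes differ more often: of the 3 with 1 to 10 TPM 2 passed 1.5-fold in favour of replicate 1, beside 9.1% of genes in that range, and of the 4 with at least 10 TPM only Ctsk did, beside 2.16%. The median log2 difference of the 7 was 0.58, beside 0 for all genes by construction. The 3 genes left out by the filter all passed 1.5-fold, Dcstamp and Ocstamp in favour of replicate 1 and Tnfrsf11a in favour of replicate 2, each on fewer than 100 counts a library. Of the 6028 genes that averaged 0.1 to 1 TPM, 21.1% passed in favour of replicate 1 and 23.3% in favour of replicate 2, so a pass is common at that level. Ctsk lies just inside and Acp5 just outside the threshold. The summed TPM of the 10 genes was 221 in replicate 1 and 161 in replicate 2.

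**Figure D4:**
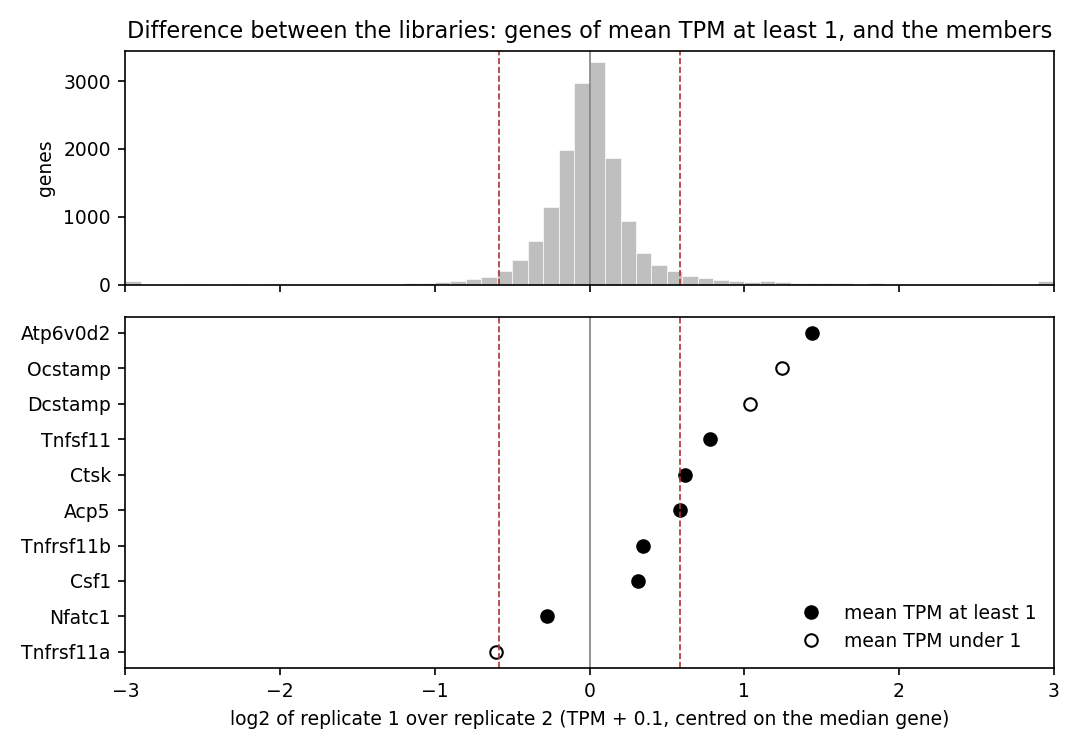
Top, number of genes by log2 difference between the replicates (bins of 0.1, all 15571 genes of mean TPM at least 1, the outermost bars collecting those beyond 3 on either side); bottom, the 10 genes on the same axis, filled where the mean TPM is at least 1. Dashed lines mark 1.5-fold; Atp6v0d2, Ocstamp and Dcstamp lie farthest to the right at 1.44, 1.24 and 1.04, and Nfatc1 (-0.28) and Tnfrsf11a (-0.60) lie left of 0.

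The pools also differed in the genes of other cell types, which were measured as lists. Muscle markers were the furthest apart, with all 8 over 1.5-fold higher in replicate 1, beside 4.87% of genes that averaged at least 1 TPM. They summed to 4957 and 1458 TPM. Osteoblast markers summed to 5788 and 4490 TPM, most of it from Col1a1, with a median log2 difference of 0.56. Of the 12 that averaged at least 1 TPM, 10 were higher in replicate 1 and 2 in replicate 2. Of these 12, 6 were over 1.5-fold higher in replicate 1, beside the same 4.87%, and 0 in replicate 2, beside 3.12%. Among the osteoblast markers Spp1 had 286 and 118 TPM, Ibsp had 388 and 226 TPM and Col1a1 had 4931 and 4017 TPM. Markers of macrophages, the lineage from which osteoclasts come, summed to 379 and 314 TPM, with 9 of 12 higher in replicate 1, 0 over 1.5-fold and a median log2 difference of 0.23. None of the 14 macrophage genes was at 0 counts. The highest macrophage markers, Lyz2 (126 and 102 TPM), C1qb (70.4 and 62.2 TPM) and C1qa (45.4 and 38.0 TPM), were all higher in replicate 1. Their intervals were separate. Intervals were separate for 6 of the 12 in that direction, beside 13.6% of genes, and for 0 in the other, beside 9.63%. Adgre1, the F4/80 antigen, was nearly equal at 7.66 and 7.54 TPM, and Ctsk stood 16.3- and 10.6-fold above it. Endothelial markers summed to 322 and 273 TPM, with all 11 higher in replicate 1 and 0 over 1.5-fold.

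Cartilage and patterning genes ran the other way or were mixed. The hypertrophic cartilage list summed to 224 and 214 TPM, with 3 genes higher in replicate 1 and 5 in replicate 2. Of its 8 genes, 2 were over 1.5-fold higher in replicate 1, Mmp13 (log2 difference 1.22) and Alpl (0.67), beside 4.87% of genes. In replicate 2 it was 1, Ihh, at 4.04 and 6.76 TPM (log2 difference -0.75), beside 3.12%. Of the 8 limb genes 7 were higher in replicate 2, among them Pitx1, at 19.1 and 30.8 TPM, and Hoxa13, a gene of the hand and foot, at 9.27 and 14.3 TPM. Tbx4, which like Pitx1 marks the hindlimb, had 12.6 against 18.0 TPM. The forelimb gene Tbx5 was the only one higher in replicate 1, with 16.04 against 12.0 TPM, and the intervals of Pitx1, Tbx4 and Tbx5 were each separate. These forelimb and hindlimb genes, Tbx4 and Tbx5 chosen after their values were seen, thus differed in opposite directions. The limb label was matched by Prrx1, a gene of limb mesenchyme, at 86.3 and 94.2 TPM. The part of these cell type differences in those of the osteoclast genes was not tested. With 1 library of each pool, the tissue taken and the preparation cannot be told apart.

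**Figure D5:**
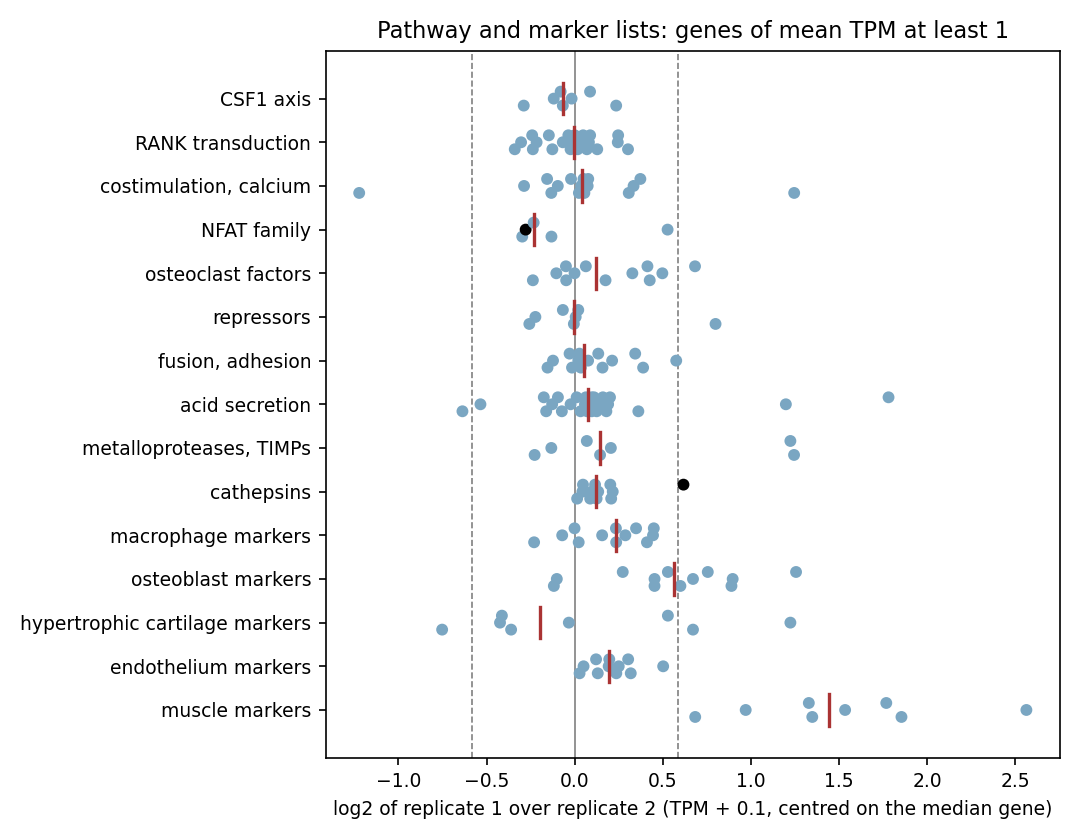
Log2 difference between the replicates for each gene of mean TPM at least 1 in 15 lists (points; genes of the described set in black; a gene may be in several lists), with the list median as a red line and 1.5-fold as dashed lines. RANK transduction centres on 0.00, cathepsins lie near 0.12 with Ctsk at the right at 0.62, and osteoblast and muscle markers have medians of 0.56 and 1.44.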

How the data were processed

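Total RNA of mouse limb was measured in 1 group of 2 libraries. The deposited sample records name mm10 as the build and GENCODE M4 as the gene set. For the aligner and the counter, names and versions were not given in the sources used here. Per the file headers the deposited gene and transcript tables hold expected counts (estimated, not whole), TPM and FPKM values and a percent column that gives the share of every transcript within its gene. The signal bounds deposited beside each TPM value are used as the interval. Their level is not stated, and they lie around a posterior mean that can differ from the TPM.

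Gene IDs were matched, without version, to GENCODE M21 (GRCm38) for names and positions. Of the gene rows 42462 had a symbol, and 97 spike-in rows and 26248 rows of other identifiers were left out. Differences were log2 of TPM plus 0.1, replicate 1 over replicate 2, minus the median (0.02) over the 15571 genes that averaged at least 1 TPM. A fold of 1.5 is a description. The labels call the libraries biological replicates, and with 1 group no p-value was computed. A 0 count allows up to 3 counts, or 0.0855 and 0.0718 CPM, which covers counting error alone because PCR copies of a molecule are not independent. Joining starts of transcripts within 1000 nt for Nfatc1, grouping Csf1 transcripts by coding length and the background of genes at 0.1 to 1 TPM were choices made after seeing the data. Named genes were drawn from the 10 genes, the paired genes, and of each list the 3 highest, the lowest and the 2 furthest apart among those that averaged at least 1 TPM. The text marks those outside this rule. Of 261 listed symbols 259 matched, and 1 further gene is not reported here. Members and lists were chosen with earlier results of these data known. Alternatives were other pseudocounts, filters, centring, units and folds. Python 3.11.15, numpy 2.4.6, pandas 2.3.3 and matplotlib 3.10.9 were used, and the scripts were tested on simulated data.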

Additional observations from a re-analysis of the deposited data

How the results depend on the processing

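The count of genes over 1.5-fold higher in replicate 1, 3 of 7, was 5 with no filter, 1 with a filter of mean TPM of at least 5 and 1 at 2-fold. With no filter 1 gene, Tnfrsf11a, passed in favour of replicate 2. Acp5 crossed 1.5-fold when the values were not centred (log2 0.61) or were centred on spike-ins (log2 0.59), which made the count 4. With a pseudocount of 1 the log2 differences of Tnfsf11 (0.43), Dcstamp (0.44), Ocstamp (0.43) and Tnfrsf11a (-0.34) lay under 1.5-fold. That of Tnfrsf11a also did with posterior mean TPM (-0.51) and without centring (-0.58). With nothing added, Tnfrsf11b over Tnfsf10 was 5.09 in log2 in place of 4.14, a choice made after seeing the data. The direction of all 10 differences was the same under each of the 5 alternatives run for them. Separate intervals higher in replicate 1, found for 6 of 7 genes, were found for 5 when shifted by the median difference. They were found for 5 with FPKM intervals and for 8 of the 10 with no filter. Of the 21 log2 ratios between genes, 3 changed sign with expected counts, which carry gene length: Tnfsf11 over Tnfrsf11a (-0.22), Atp6v0a1 over Tcirg1 (0.55) and Dcstamp over Ocstamp (-0.33). Leaving out a replicate, Tnfsf11 over Tnfrsf11a ranged from -0.55 to 0.83, so the order of their gene values rests on the library. A difference between the libraries has no value without either one. Reads limit Dcstamp, Ocstamp, Tnfrsf11a and Tnfsf11, each under 100 counts. No paired analysis was possible because the series has 1 group.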

Other observations

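A list of genes that regulate RANK ligand or carry other signals of bone cells held widely different levels. Of 18 such genes, 13 had a mean TPM of at least 1, with 5 higher in replicate 1, 8 higher in replicate 2 and a median log2 difference of -0.15. The secreted factors Spp1 (286 and 118 TPM), Cxcl12 (154 and 140 TPM) and Wnt5a (84.7 and 84.2 TPM) were highest, and Spp1, which is also an osteoblast marker, was the only one of the 13 over 1.5-fold apart (log2 difference 1.26). Efnb2, an ephrin ligand of bone cells, ran the other way (17.3 and 24.3 TPM, log2 difference -0.51). The lowest was the inflammatory cytokine gene Il1b at 0.11 and 0.25 TPM.

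Among TNF family genes near the pathway 8 of 11 had a mean TPM of at least 1. The receptor genes Tnfrsf1a (83.5 and 78.7 TPM), Ltbr (42.7 and 38.6 TPM) and Tnfrsf12a (35.9 and 22.7 TPM) were far above Tnfrsf11a, and Tnfrsf12a was the only one of the 8 over 1.5-fold apart (log2 difference 0.63). Cd40lg, a T cell ligand, had 0 counts in both libraries, with intervals that reach 0.114 and 0.0929 TPM. Lymphocyte markers summed to 1.28 and 1.11 TPM, with 0 of 8 at a mean TPM of 1 and the B cell gene Ms4a1 at 0 counts in both. Dendritic cell markers summed to 11.5 and 9.09 TPM, of which H2-Ab1 (6.09 and 4.65 TPM) and Zbtb46 (4.02 and 3.42 TPM), genes that macrophages and endothelium also express, were the only ones with a mean of at least 1 TPM. Of 6 acid phosphatases, Acp1 (43.3 and 45.9 TPM) and Acp6 (37.2 and 36.1 TPM) were near Acp5 in level and differed by less. In a looser list of osteoclast genes 10 of 15 had a mean TPM of at least 1, with a median log2 difference of 0.23. The highest were the creatine kinase gene Ckb (151 and 106 TPM) and the histone gene Hist1h2bc (85.6 and 73.5 TPM). Of the 10, 7 were higher in replicate 1 and 3 in replicate 2, with 1 over 1.5-fold each way (Mmp9 and Car2). Calcr (0.25 and 0.11 TPM) and Siglec15 (0.04 and 0.07 TPM), chosen after their values were seen, had means under 1 TPM.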
